A study of Arabidopsis thaliana with 8 samples.

Results

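The peroxidase genes described here were the 51 Arabidopsis genes that appeared in at least 1 of 5 deposited comparison tables with the word peroxidase, but not glutathione peroxidase, in their short description. One further gene with such a description was not analysed here. The tables listed 7948 different genes in all. By known family, which the descriptions do not always show, 43 of the 51 were class III peroxidases, 5 were ascorbate peroxidases or relatives (*APX1*, *TAPX*, *TL29*, *APX6* and *APX5*) and 3 matched the word without belonging to either family. These 3 were *TPX2*, a peroxiredoxin, *DOX1*, an alpha-dioxygenase that the table describes like the class III genes, and *OCP3*, a homeodomain transcription factor. The TAIR10.1 annotation held 74 loci named as peroxidase family members, of which 44 were among the 51 (the 43 class III genes and *DOX1*) and 30 were in none of the tables, and these 30 therefore had no value.

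The comparisons were made between whole 7-day-old seedlings of 4 genotypes in the Col-0 ecotype, grown on Gamborg B5 medium in white light that was never switched off. Each genotype had 2 libraries made from poly-A RNA. The genotypes were wild type (WT), *nf-yc triple* (labelled nf-yc3 c4 c9, with insertions in 3 NF-YC genes and called the triple mutant below), the single mutant *hy5*, and *nf-yc triple hy5*, which carries all 4 insertions and is called the quadruple mutant. NF-YC proteins are subunits of a trimeric factor that binds CCAAT sequences, and HY5 is a bZIP factor of light signalling that binds sequences with an ACGT core. The *nf-yc* alleles reduce the transcripts of their genes to different degrees and are not all null. Below, without HY5 means carrying the *hy5* mutation.

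Each table listed the genes with an edgeR adjusted p below 0.05 in 1 comparison and gave the log2 fold change, the mean log2 CPM (counts scaled to the size of the library) over both genotypes and the adjusted p. It gave no value for single libraries, so no SD could be computed and the depth of the libraries is unknown. Nothing in the labels separates the plants behind both libraries of a genotype, and p-values then measure only the spread between these libraries. A gene was called higher or lower below where it was listed and changed by at least 1.5-fold. A gene that a table did not list had an adjusted p of at least 0.05 or was not tested. The mutated genes followed the labels as far as they were listed. *NF-YC3* was at a log2 fold change of -4.08 in the triple mutant and -3.73 in the quadruple mutant against WT, *NF-YC9* was at -2.29 and -1.82, and *NF-YC4* was at -0.97 and -1.18. *HY5* itself was in none of the tables, so its own transcript gave no check of the 2 genotypes that carry the *hy5* mutation.

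Class III peroxidases are secreted heme enzymes of plants. With hydrogen peroxide they can oxidise phenolic compounds, which cross-links wall polymers and polymerises lignin, and in another cycle they can release reactive oxygen species that loosen walls. Members are expressed in particular places, among them root hairs, the endodermis that lays down the lignified Casparian strip, and the vascular tissue. Ascorbate peroxidases are intracellular enzymes that remove hydrogen peroxide with ascorbate.

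The sequences just upstream of 5 members are shown because the binding sequences of the 2 mutated factors are known and these genes had among the largest changes of all members. They were chosen after their values were seen. Each is the 300 bases before the annotated gene start in RefSeq TAIR10.1, printed 5′ to 3′ on the strand of the gene, with every ACGT, the G-box CACGTG and every CCAAT or its reverse complement ATTGG in capitals. *PRXCA* is at chr3:18200287-18200586 (plus strand), *PRXCB* at chr3:18207351-18207650 (plus), *PRX71* at chr5:25661008-25661307 (minus), *PRX25* at chr2:17298726-17299025 (minus) and AT5G47000 at chr5:19070334-19070633 (minus).
PRXCA: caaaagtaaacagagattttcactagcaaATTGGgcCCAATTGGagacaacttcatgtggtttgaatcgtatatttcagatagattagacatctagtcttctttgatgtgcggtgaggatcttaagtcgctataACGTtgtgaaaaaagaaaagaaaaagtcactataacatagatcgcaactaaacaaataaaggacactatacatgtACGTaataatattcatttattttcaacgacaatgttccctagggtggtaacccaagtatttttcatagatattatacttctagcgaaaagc
PRXCB: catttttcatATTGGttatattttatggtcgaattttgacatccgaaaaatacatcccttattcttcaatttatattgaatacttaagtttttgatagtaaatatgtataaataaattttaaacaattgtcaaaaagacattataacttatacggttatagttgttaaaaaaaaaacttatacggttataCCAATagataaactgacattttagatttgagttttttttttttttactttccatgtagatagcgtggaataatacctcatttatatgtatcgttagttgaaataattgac
PRX71: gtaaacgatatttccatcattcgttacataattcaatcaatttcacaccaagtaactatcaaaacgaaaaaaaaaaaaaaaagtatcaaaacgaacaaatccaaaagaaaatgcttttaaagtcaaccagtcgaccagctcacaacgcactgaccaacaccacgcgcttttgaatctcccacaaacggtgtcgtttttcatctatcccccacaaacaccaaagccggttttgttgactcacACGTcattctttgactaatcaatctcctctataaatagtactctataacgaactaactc
PRX25: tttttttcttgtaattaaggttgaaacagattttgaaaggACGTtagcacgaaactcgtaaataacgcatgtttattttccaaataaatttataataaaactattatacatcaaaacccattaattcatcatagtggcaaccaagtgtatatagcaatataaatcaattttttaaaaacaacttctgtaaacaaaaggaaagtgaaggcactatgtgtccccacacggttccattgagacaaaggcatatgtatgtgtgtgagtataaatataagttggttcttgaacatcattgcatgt
AT5G47000: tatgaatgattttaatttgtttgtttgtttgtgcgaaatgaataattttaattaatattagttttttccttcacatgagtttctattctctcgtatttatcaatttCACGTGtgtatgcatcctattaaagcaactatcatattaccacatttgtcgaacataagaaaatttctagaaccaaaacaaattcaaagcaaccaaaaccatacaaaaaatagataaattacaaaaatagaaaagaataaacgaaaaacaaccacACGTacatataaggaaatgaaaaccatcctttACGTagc

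The upstream window of *PRXCA* held 2 ACGT and 3 CCAAT matches on either strand, whereas that of its close copy *PRXCB* held 2 CCAAT matches and no ACGT. *PRX71* and *PRX25*, which moved in opposite directions in *hy5*, each held 1 ACGT and no CCAAT. AT5G47000, the member with the lowest log2 fold change in *hy5*, held 3 ACGT matches, and 1 of them lay inside a G-box that began 194 bases before the start. It was the only member of the 51 with a G-box in this window (1.96%), beside 7.09% of all 27443 protein-coding genes. ACGT alone, which every G-box contains, occurred in 60.8% of members and 49% of all genes. CCAAT occurred in 52.9% of members and 51.9% of all genes, and TTGAC, the core of the W-box, in 45.1% and 50.4%. ACGT was present in 3 of the 8 members called lower in *hy5* and in 10 of the 15 called higher, and CCAAT in 8 of the 13 called higher in the triple mutant. These matches describe the letters in the windows and were not tested against binding.

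More members were called higher than lower in each mutant compared with WT. In the triple mutant, 30 of the 51 members were listed, 13 were called higher and 4 lower, while 3.36% of all 19177 genes tested were called higher and 2.59% lower. In *hy5*, 31 were listed, 15 were called higher and 8 lower, beside 7.13% and 4.9% of 19199 genes. In the quadruple mutant, 32 were listed, 13 were called higher and 8 lower, beside 7.67% and 7.03% of 19115 genes. The 3 comparisons share the WT libraries. Because a gene entered the 51 only by being listed in some table, the shares of members are not comparable with these percentages. The fixed annotation gives a denominator that the tables did not set. It still counts loci that may not have been tested, among them the 30 in no table, whereas the percentages are of tested genes. Of the 74 annotated family loci, 16.2% were called higher and 5.41% lower in the triple mutant, 17.6% and 10.8% in *hy5*, and 14.9% and 9.46% in the quadruple mutant. The median log2 fold change of the listed members was 0.51, 0.56 and 0.40 in the 3 mutants, and that of all listed genes was -0.24, 0.27 and -0.22.

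With the *hy5* mutation added to the triple mutant, more members were called lower than higher. Between the quadruple mutant and the triple mutant, 31 members were listed, 7 were called higher and 13 lower, with a median of -0.38 beside 0.25 for all listed genes. Of the 19241 genes tested in that comparison, 5.51% were called higher and 4.75% lower, and of the 74 family loci 8.11% were called higher and 17.6% lower. Of the 13 members called lower, 7 were listed above 0 in the triple mutant against WT and 6 were not listed there. Both comparisons use the triple mutant libraries, so a high value in those libraries raises one and lowers the other. With the 3 *nf-yc* mutations added to *hy5*, few genes of any kind were listed, 920 of the 7948, and few members among them. Between the quadruple mutant and *hy5*, 7 members were listed, 1 was called higher and 0 were called lower by the edgeR test, where 4 members were listed below 0 at an adjusted p below 0.05 without reaching 1.5-fold. Of 19347 genes, 0.563% were called higher and 1.26% lower there, and of the 74 family loci 1.35% (1 locus) were called higher and 0% lower. The map of log2 fold changes shows these members gene by gene.

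**Figure D1:**
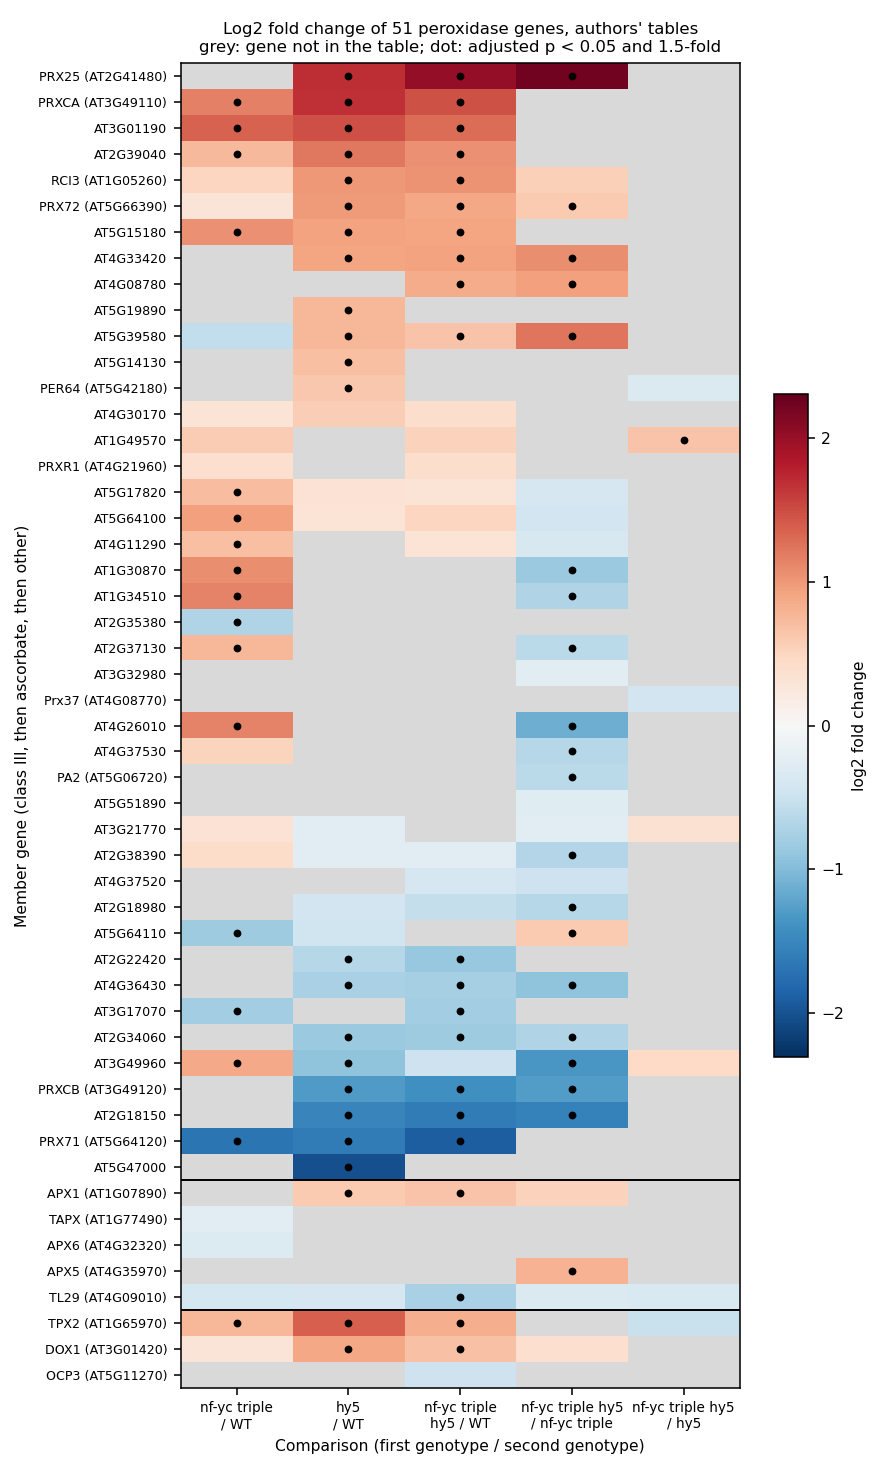
Log2 fold change (colour scale, log2 units) of each of the 51 members (rows, in 3 blocks for class III, ascorbate and other) in the 5 deposited comparisons (columns), with grey for a gene that a table did not list and a dot for an adjusted p below 0.05 with at least 1.5-fold change. *PRX25* tops the class III block with values from 1.71 to 2.22, AT5G47000 closes it with -2.02 in *hy5*, and the last column holds only 7 values.

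The level of a member in each genotype was worked out from its mean log2 CPM and log2 fold change. Estimates of 1 level from different tables differed by a factor of at most 1.05 among members, and 27 members had a level in all 4 genotypes. Per kb of transcript, the WT levels of the 39 class III members with a WT value had a median of 18.4 CPM per kb. *PRXR1*, a broadly expressed peroxidase, stood first with 1030 CPM per kb, which was 43% of the sum over the 39. Among these 39, *PRXCB* followed with 238, *PRX71* with 152 and AT5G64100 with 117 CPM per kb. The order leaves out 4 class III members without a WT value, among them AT3G32980, which was at 443 CPM per kb in the triple mutant and 374 in the quadruple mutant, where *PRXCB* was at 227 and 91.9. The lowest were AT5G47000 with 2.24 and AT1G34510 with 2.2 CPM per kb. Neighbours in this order could not be separated, since the tables give no spread between libraries.

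No comparison called *PRXR1*, the member with the highest WT level. *PRXR1* was at 1870 CPM in WT, 2430 CPM in the triple mutant and 2510 CPM in the quadruple mutant, with log2 fold changes of 0.39 and 0.40 against WT, and it was not listed in *hy5*. Its relative AT2G37130, with 61.8% identity over the coding sequence, was called higher in the triple mutant. It was at 105 CPM in WT, 182 CPM in the triple mutant and 120 CPM in the quadruple mutant.

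A group of 4 class III genes that are known from root hairs rose in the triple mutant and were lower in the quadruple mutant than in the triple mutant. A list of 7 root hair peroxidases had 5 genes in any table, of which 4 were members and 4 were called higher in the triple mutant. Of all genes tested, 3.36% were called higher there, and the list was chosen with earlier results of these data known. AT4G26010 was at 24.6 CPM in WT, 55.2 CPM in the triple mutant and 25.9 CPM in the quadruple mutant. AT1G30870 was at 20.0, 43.0 and 24.2 CPM in the same order, and AT1G34510, the lowest of the group, at 2.75, 6.20 and 3.89 CPM. In these genes the triple mutant stood above both other genotypes, and none was listed in *hy5* against WT or in the quadruple mutant against WT. Their log2 fold changes in the triple mutant were 1.14 for AT4G26010 (edgeR adjusted p = 3.99e-16), 1.08 for AT1G30870 (3.57e-14) and 1.15 for AT1G34510 (1.89e-04). Against the triple mutant, the quadruple mutant was at -1.12, -0.86 and -0.69. Both comparisons use the triple mutant libraries, so a high value in those libraries raises the first and lowers the second. The closest relative of AT1G34510 among the annotated loci was AT4G26010, with 70% identity of coding sequence.

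AT3G49960, annotated as enriched in root hairs, differed from these 3 in that it was also called lower in *hy5*. Its level was 25.8 CPM in WT, 47.7 CPM in the triple mutant, 13.9 CPM in *hy5* and 19.1 CPM in the quadruple mutant. It was 1 of 2 members listed in all 5 tables, at 0.86 in the triple mutant, -0.92 in *hy5* and -0.49 in the quadruple mutant against WT, at -1.34 against the triple mutant and at 0.45 against *hy5*. With or without HY5, the genotype with the 3 *nf-yc* mutations had the higher level. RHS18 (AT5G22410), a peroxidase of the root hair list whose description lacks the word and which was therefore no member, was at -0.59 in *hy5*, and the remaining 2 genes of the list, AT1G05240 and AT1G05250, were in no table.

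Other root hair genes moved beside these peroxidases. Of 9 such genes, 8 were called higher in the triple mutant, beside 3.36% of all genes tested. In the quadruple mutant against the triple mutant 7 were called lower, beside 4.75%. In *hy5* 0 were called higher and 1 lower, beside 7.13% and 4.9%. This list was chosen with earlier results of these data known. The first 2 comparisons both use the triple mutant libraries, so they do not count as separate evidence. *PRP3*, a proline-rich wall protein, was at 1.24 in the first comparison and -1.34 in the second, *EXPA7*, an expansin, at 1.14 and -1.10, and *LRX1*, an extensin-like protein, at 1.08 and -0.93. *RHD2*, the NADPH oxidase that makes superoxide in growing root hairs, was at 0.75 and -0.83. *PRP1*, like AT3G49960, was higher in the triple mutant (1.21) and lower in *hy5* (-2.18). In whole seedlings, more cells of a type and more RNA in each cell cannot be told apart, and the part of root hair number in the peroxidase values was not tested.

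**Figure D2:**
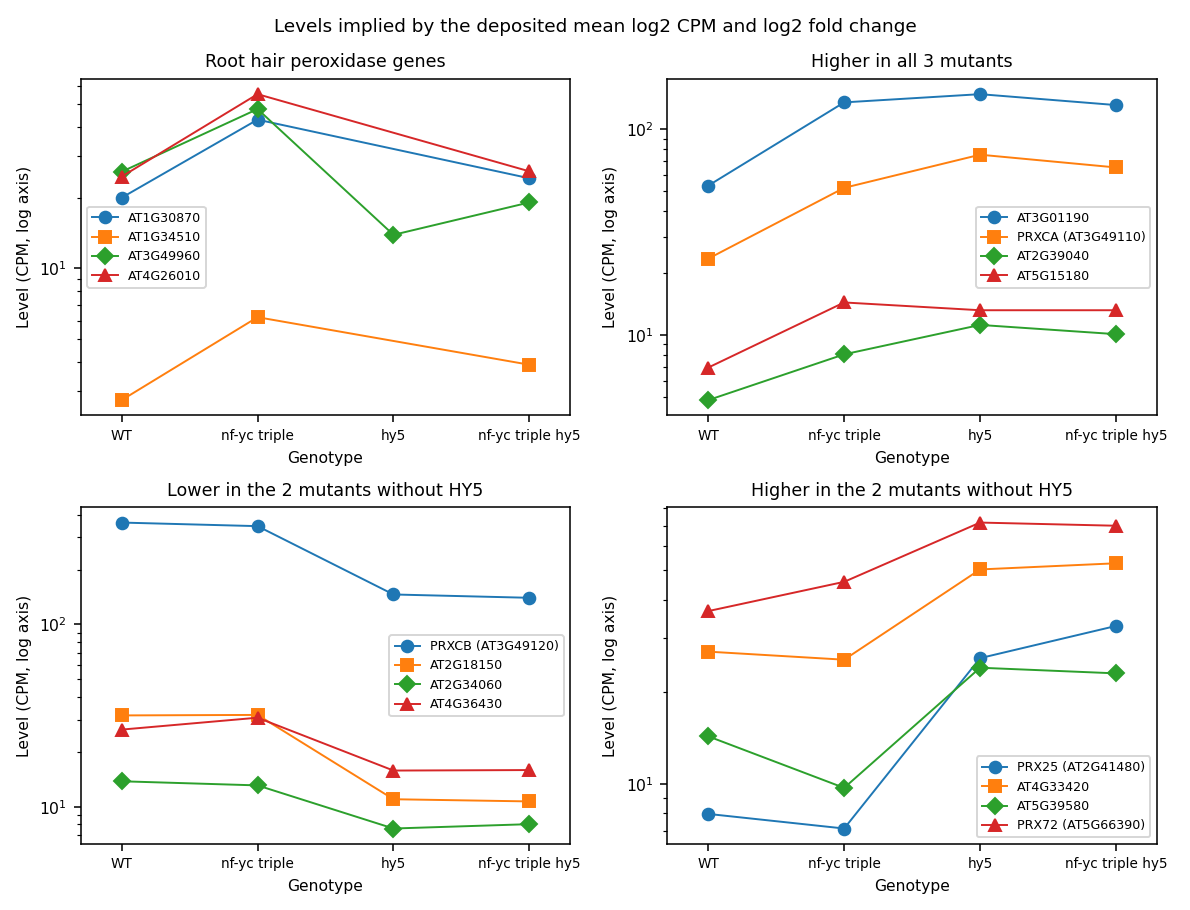
Level of 16 class III members in CPM (log axis) in the genotypes on the x axis, 1 line for each gene and no point where no table gives a level; each point is a value for the genotype as a whole, with no error available. AT4G26010 peaks at 55.2 CPM in the triple mutant, AT3G01190 lies at 131 to 148 CPM in the 3 mutants against 53.2 CPM in WT, *PRXCB* drops from 362 to 146 CPM in *hy5*, and *PRX25* climbs from 7.96 to 25.8 CPM.

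Several class III genes were called higher in each of the 3 comparisons with WT, which share the WT libraries. AT3G01190 was at 53.2 CPM in WT, 135 CPM in the triple mutant, 148 CPM in *hy5* and 131 CPM in the quadruple mutant, and its log2 fold changes against WT were 1.36, 1.48 and 1.29 (edgeR adjusted p of 1.77e-40, 1.12e-63 and 1.23e-40). AT5G15180, its closest relative at 74.4% identity, was at 6.95, 14.4, 13.2 and 13.2 CPM in the same order. AT2G39040 was at 4.83, 8.06, 11.2 and 10.1 CPM, and in the triple mutant its edgeR adjusted p was 0.0406 at a mean log2 CPM of 2.69. For each of these genes the 3 mutants lay above WT, and neither comparison of the quadruple mutant with a parental line listed it.

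*PRXCA* and *PRXCB*, the peroxidases of the oxidative burst in defence that also act in cell elongation, are close copies with 90.4% identity of coding sequence, and they changed in opposite directions in *hy5*. *PRXCA* was at 23.5 CPM in WT, 51.9 CPM in the triple mutant, 75.2 CPM in *hy5* and 65.2 CPM in the quadruple mutant, so that all 3 mutants were above WT. *PRXCB* was at 362, 346, 146 and 140 CPM in the same order, so that the genotypes with HY5 were high and those without it were low. In *hy5* against WT the log2 fold change was 1.69 for *PRXCA* (edgeR adjusted p = 6.52e-47) and -1.29 for *PRXCB* (3.15e-61). In the quadruple mutant against the triple mutant, *PRXCB* was at -1.28 and *PRXCA* was not listed. In the triple mutant against WT, *PRXCA* was at 1.16 and *PRXCB* was not listed. AT3G32980, with 84.2% identity to *PRXCB*, was listed only in the comparison of the quadruple mutant with the triple mutant, at -0.24. How reads that fit more than 1 of these copies were counted is not given in the sources used here, so their levels and changes are uncertain.

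Members that lie next to each other on a chromosome also differed. AT5G64100, AT5G64110 and *PRX71* (AT5G64120) follow one another on chromosome 5, 1826 and 3189 bp apart, with 68.7% identity between the first 2 and 62.1% between the last 2. AT5G64100 was at 169 CPM in WT, 330 CPM in the triple mutant, 210 CPM in *hy5* and 245 CPM in the quadruple mutant. AT5G64110 was at 24.1, 14.0, 17.7 and 21.7 CPM, and *PRX71* at 204, 63.2, 66.9 and 55.2 CPM. In the triple mutant against WT, the first gene was called higher at 0.95 and the other two were called lower, at -0.81 and -1.68. *PRX71*, a wall-bound enzyme linked to lignification and induced by low osmolarity, was lower in all 3 mutants, with -1.61 in *hy5* and -1.90 in the quadruple mutant (edgeR adjusted p of 1.28e-52, 3.23e-63 and 9.51e-38 in the triple mutant, *hy5* and the quadruple mutant). It was not listed for the quadruple mutant against either parental line. AT5G39580, the closest relative of *PRX71* at 75.7% identity, changed differently, with 14.3 CPM in WT, 9.69 CPM in the triple mutant, 24.0 CPM in *hy5* and 23.0 CPM in the quadruple mutant.

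**Figure D3:**
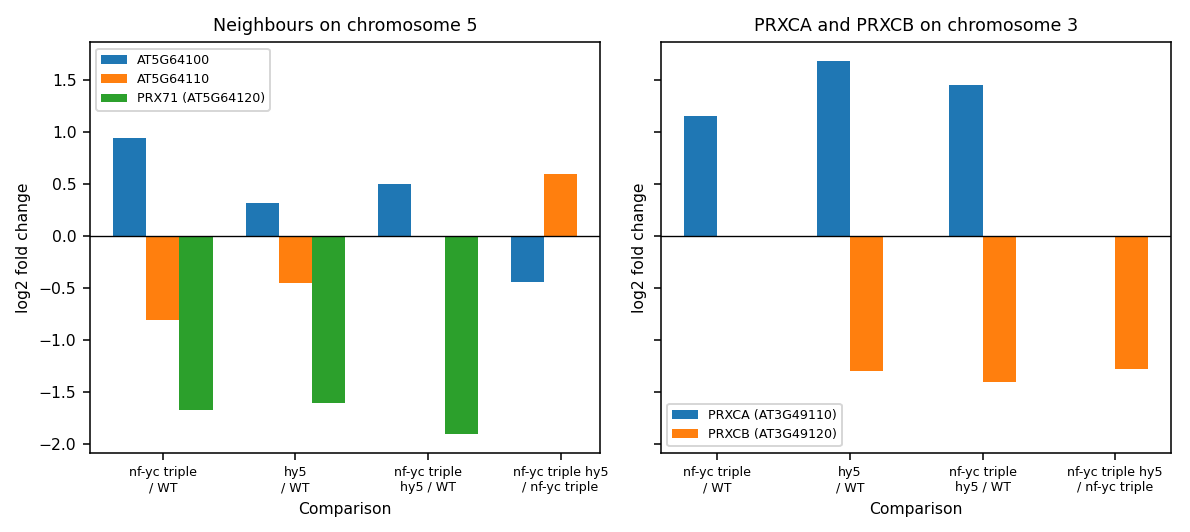
Log2 fold change (bars, log2 units, from 0) in 4 deposited comparisons for 3 neighbouring class III genes on chromosome 5 and for *PRXCA* and *PRXCB* on chromosome 3, where no bar means that the table did not list the gene. AT5G64100 is at 0.95 and *PRX71* at -1.68 in the triple mutant, and *PRXCA* is at 1.69 and *PRXCB* at -1.29 in *hy5*.

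The other neighbouring genes are near-identical. *Prx37* (AT4G08770) and AT4G08780 share 93.8% of their coding sequence and lie 3706 bp apart on chromosome 4. *Prx37*, a vascular peroxidase whose overexpression dwarfs plants, was listed only in the quadruple mutant against *hy5*, at -0.44, whereas AT4G08780 was at 0.85 against WT and 0.94 against the triple mutant in the quadruple mutant. AT4G37520 and AT4G37530 share 92.4% and lie 1446 bp apart. AT4G37530 was at 21.9 CPM in WT, 31.9 CPM in the triple mutant and 20.6 CPM in the quadruple mutant, and AT4G37520 at 104, 114 and 80.5 CPM. Both were lower in the quadruple mutant than in the triple mutant, at -0.66 and -0.49. Reads may have been split between these copies, and the same uncertainty holds for AT2G18150, which shares 91.7% with AT2G18140, and for AT2G38390, which shares 90.6% with AT2G38380.

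Of a list of 5 peroxidases of the Casparian strip and endodermis, the 4 found in any table were *RCI3*, AT4G11290, *PER64* and *PRX72*. Called higher were 3 in *hy5*, 1 in the triple mutant and 2 in the quadruple mutant, beside 7.13%, 3.36% and 7.67% of all genes tested. In the 5 comparisons 0 were called lower, where 1.26% to 7.03% of all genes were, so that 0 among so few genes says little. *RCI3*, a cationic peroxidase named for its induction by cold, was at 84.7 CPM in WT, 121 CPM in the triple mutant, 168 CPM in *hy5* and 179 CPM in the quadruple mutant. *PRX72*, which acts in lignification, was at 36.8, 45.9, 71.8 and 70.1 CPM. For both genes the 2 genotypes without HY5 stood above those with it, and the log2 fold changes in *hy5* were 1.00 for *RCI3* (edgeR adjusted p = 3.08e-33) and 0.97 for *PRX72* (1.60e-19). *PER64*, which is placed at the strip by the CASP scaffold proteins, was at 23.4 CPM in WT and 36.6 CPM in *hy5* (log2 fold change 0.62). AT4G11290 was called higher in the triple mutant alone, at 28.4 CPM in WT, 46.1 CPM in the triple mutant and 36.0 CPM in the quadruple mutant.

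Other genes of the strip were called in the same comparison. The lists in this paragraph were chosen with earlier results of these data known. Of all genes tested, 3.36% were called higher and 2.59% lower in the triple mutant. In *hy5* these shares were 7.13% and 4.9%, and in the quadruple mutant 7.67% and 7.03%. Of 9 further Casparian strip genes, 6 were in any table. Called higher were 5 in *hy5* and 2 in the triple mutant, and 0 were called lower in either. In the quadruple mutant 2 were called higher against WT. Against the triple mutant, the quadruple mutant had 1 called higher and 1 lower (*CASP4*, -0.67), beside 5.51% and 4.75% of all genes tested. *CASP1* was at 0.74 in *hy5*, *CASP2* at 0.82 and *CASP4* at 1.02, with 0.56, 0.63 and 1.56 in the triple mutant. Other genes of the root moved too. Of 16 root genes outside hairs, 4 were called higher and 2 lower in the triple mutant, and 5 higher and 0 lower in *hy5*, with *PIP2;4*, an aquaporin, at 1.31 and 1.82 and the glucosidase *PYK10* at -0.76 and -0.53. Of 11 photosynthesis genes that mark green tissue, 0 were called in the triple mutant, 6 were called lower in *hy5* and 8 in the quadruple mutant. The medians of those listed were -0.37, -0.62 and -1.03. In the triple mutant only 8 of the 11 were listed, so the first median leaves out the others. The part of root and shoot proportions in the peroxidase values was not tested.

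Genes linked to lignin deposition did not move together. *PRX25* (AT2G41480), which acts in lignification, had the highest log2 fold changes of any member. It was at 7.96 CPM in WT, 7.13 CPM in the triple mutant, 25.8 CPM in *hy5* and 32.9 CPM in the quadruple mutant, so that both genotypes without HY5 were high and both with it low. Its log2 fold change was 1.71 in *hy5* (edgeR adjusted p = 3.26e-33), 2.02 in the quadruple mutant against WT and 2.22 against the triple mutant (8.83e-53). AT2G22420 was lower, at 12.1 CPM in WT, 7.63 CPM in *hy5* and 6.67 CPM in the quadruple mutant. AT5G17820 was called higher in the triple mutant at 0.71, with 78.4 CPM in WT, 130 CPM in the triple mutant, 98.9 CPM in *hy5* and 100 CPM in the quadruple mutant. *PA2*, a peroxidase of the wound response, was listed in the quadruple mutant against the triple mutant alone, at -0.63, and so was AT5G51890, of lignifying tracheary elements in roots, at -0.28. Together with *PRX71*, this made 5 listed genes of the lignin and growth list of 7. In *hy5* 1 of them was called higher and 2 lower, beside 7.13% and 4.9% of all genes tested. AT5G51890 was not on that list.

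Genes of monolignol synthesis, which makes the phenolic substrates of the wall peroxidases, were called only lower, though some were listed above 0. Of 19 genes, 0 were called higher in any comparison. Called lower were 1 in the triple mutant, 5 in *hy5* and 8 in the quadruple mutant, beside 2.59%, 4.9% and 7.03% of all genes tested. The quadruple mutant had 4 called lower against the triple mutant and 1 against *hy5*, beside 4.75% and 1.26%. Listed above 0 but not called were *4CL5* in the triple mutant (0.41) and *PAL4* (0.39) and *CCR2* (0.45) in *hy5*. *PAL3* was likewise at 0.46 in the quadruple mutant against WT and 0.32 against the triple mutant. *PAL1*, the entry enzyme of phenylpropanoid synthesis, was at -1.16 in *hy5*, and *4CL3*, a ligase that serves flavonoid synthesis more than lignin, at -3.0. *C4H*, *FAH1* and *ATCAD4* were at -0.74, -0.69 and -0.75. Of 3 laccases, which also polymerise lignin, 1 was in any table and 0 were called. Among 10 NADPH oxidases, which supply superoxide, 1 was called higher in the triple mutant (*RHD2*, also a root hair gene). In *hy5* 2 were called higher and in the quadruple mutant 3, with 0 called lower in the 3 mutants. Of all genes tested, 3.36%, 7.13% and 7.67% were called higher in these comparisons. AT4G25090 in the triple mutant (-0.41) and *RBOH F* in the quadruple mutant (-0.28) were listed below 0 but not called. AT4G11230 was at 1.21 and *RBOHB* at 0.75 in *hy5*, and *RBOHD* at 0.63 in the quadruple mutant. In the quadruple mutant against the triple mutant 1 was called higher (*RBOHD*, 0.71) and 1 lower (*RHD2*). Among 10 catalases and superoxide dismutases, *CAT3* was called higher in all 3 mutants, at 0.95, 1.22 and 1.45, and *FSD1* in *hy5* and the quadruple mutant, at 0.66 and 0.80. Against the triple mutant, the quadruple mutant had *FSD1* called higher (0.65) and *CSD1* and *CSD2* called lower (-0.87 and -0.71). Among 8 glutathione peroxidases, *GPX7* was called lower in the triple mutant at -0.88 and in *hy5* at -2.36, and *GPX1* in the quadruple mutant at -0.62. *UPB1*, a bHLH factor known to repress peroxidase genes in the root tip, was in no table.

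The comparisons of HY5 loss in the WT and the triple mutant background share no library and could be set against each other. Of 19 members listed in both, 16 had the same sign (84.2%), beside 98% of 2725 genes. Only genes with an adjusted p below 0.05 in both comparisons enter here. Genes that changed in 1 background alone are left out, so the shared signs and r describe a selected set. Of the 15 members called higher in *hy5*, 4 were also called higher in the triple mutant background. The 5 members called higher in both *hy5* and the triple mutant were not listed there. Pearson's r was 0.891 over the 19 members and 0.895 over the 2725 genes, given as a description across genes, which are not independent and share the libraries of each comparison. Members called lower in both were AT2G18150, AT2G34060, *PRXCB*, AT3G49960 and AT4G36430, and those called higher in both were *PRX25*, AT4G33420, AT5G39580 and *PRX72*. AT2G18150 was at 31.7 CPM in WT, 31.9 CPM in the triple mutant, 11.0 CPM in *hy5* and 10.7 CPM in the quadruple mutant, and AT4G36430, with 80.1% identity to it, at 26.5, 30.8, 15.8 and 15.9 CPM. AT2G34060 was at 13.8, 13.1, 7.60 and 8.03 CPM, and AT4G33420 at 27.1, 25.5, 50.4 and 52.8 CPM. In each of these 4 genes the genotypes with HY5 lay on 1 side of those without it. That split follows from choosing genes called alike in both comparisons. The 4 genes were not listed in either comparison of NF-YC loss, which does not show that the NF-YC genes have no effect on them. Other members called alike also differed between the genotypes with HY5. AT3G49960 was at 25.8 CPM in WT and 47.7 CPM in the triple mutant, and AT5G39580 at 14.3 and 9.69 CPM. The 3 members with opposite signs were AT5G17820 (0.34 in *hy5* and -0.38 in the triple mutant background), AT5G64100 (0.32 and -0.44) and AT5G64110 (-0.45 and 0.60). AT5G17820 and AT5G64100 had been called higher in the triple mutant, and AT5G64110 lower.

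**Figure D4:**
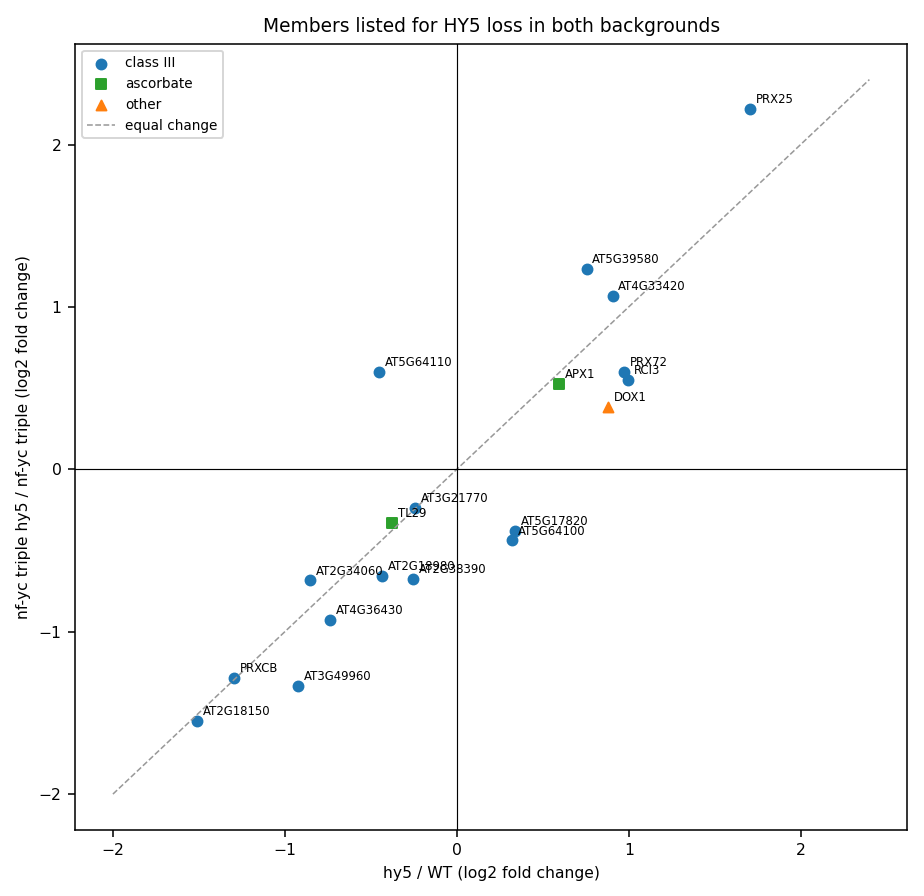
Log2 fold change upon loss of HY5 in the WT background (x axis) and in the triple mutant background (y axis) for the 19 members listed in both comparisons, with 1 point for each gene, symbols for the class and a dashed line for equal change. The 16 points in the lower left and upper right share a sign, *PRX25* is farthest out at 1.71 and 2.22, and AT5G64110, AT5G17820 and AT5G64100 lie in the quadrants of opposite sign.

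AT5G47000 had the lowest log2 fold change of any member, -2.02 in *hy5* (edgeR adjusted p = 4.27e-06), from 3.43 CPM in WT to 0.849 CPM, and it was listed in no other table. Its WT level was among the lowest per kb, and the number of reads behind it is unknown. Further members listed in *hy5* alone were AT5G19890 at 0.76 and AT5G14130 at 0.70. AT2G35380 was called in the triple mutant alone, from 12.9 CPM in WT to 8.0 CPM (-0.69), and AT3G17070 was at -0.81 in the triple mutant and in the quadruple mutant. Small changes in opposite directions were listed for AT2G38390, at 0.43 in the triple mutant and -0.26 in *hy5* (it was called lower in the quadruple mutant against the triple mutant, at -0.67), and for AT3G21770, at 0.34 and -0.24. AT4G30170 was at 0.32, 0.56 and 0.40 in the triple mutant, *hy5* and the quadruple mutant, and AT2G18980, its relative with 78.7% identity, at -0.43 in *hy5*, -0.54 in the quadruple mutant and, called lower there, -0.66 in the quadruple mutant against the triple mutant.

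The effect of the 3 *nf-yc* mutations was compared with and without HY5 in the same way, in comparisons that share no library. Of 5 members listed in both, 4 had the same sign, beside 92.4% of 523 genes. Here too, only genes with an adjusted p below 0.05 in both comparisons enter. AT1G49570, the member called in the quadruple mutant against *hy5*, was at 10.7 CPM in WT, 15.8 CPM in the triple mutant, 10.1 CPM in *hy5* and 15.8 CPM in the quadruple mutant. Its log2 fold change was 0.58 with HY5 and 0.66 without it, so that the 2 genotypes with the *nf-yc* mutations were high in either case. AT3G49960 (0.86 and 0.45), AT3G21770 (0.34 and 0.34) and *TL29* (-0.40 and -0.35) also kept their sign. *TPX2* did not, with 0.76 with HY5 and -0.51 without. *Prx37* (-0.44) and *PER64* (-0.33) were listed without HY5 only, and whether their response differed between the backgrounds was not tested.

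Of the 5 ascorbate peroxidases, *APX1*, *TL29* and *APX5* were called in at least 1 comparison and *TAPX* and *APX6* in none. *APX1*, the cytosolic enzyme, was at 367 CPM in WT, 417 CPM in the triple mutant, 550 CPM in *hy5* and 591 CPM in the quadruple mutant, and was called higher in both genotypes without HY5, at 0.59 and 0.66 against WT. *TL29*, a protein of the thylakoid lumen for which no enzyme activity is known, was the other member in all 5 tables and was negative in each. It was at 375, 288, 294 and 232 CPM, so that WT was highest and the quadruple mutant lowest, with -0.40 in the triple mutant, -0.38 in *hy5* and -0.74 in the quadruple mutant. The last was the only comparison in which it passed 1.5-fold. *TAPX*, of the thylakoid membrane, was at -0.25 and *APX6* at -0.31 in the triple mutant, and *APX5* was listed in the quadruple mutant against the triple mutant alone, at 0.80 and levels of 2.26 and 3.94 CPM.

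Of the 3 genes that matched only by word, *TPX2* was at 8.83 CPM in WT, 14.9 CPM in the triple mutant, 23.0 CPM in *hy5* and 16.2 CPM in the quadruple mutant. *DOX1*, which oxidises fatty acids, was at 182, 226, 334 and 297 CPM, and was called higher in *hy5* at 0.88 and in the quadruple mutant at 0.67. *OCP3* was listed in the quadruple mutant against WT alone, at -0.48. Without these 3 genes and the ascorbate peroxidases, 12 class III members were called higher and 4 lower in the triple mutant, 12 and 8 in *hy5*, and 10 and 7 in the quadruple mutant.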

How the data were processed

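Seedling RNA of 4 genotypes, with 2 libraries each, was sequenced and analysed by the authors, who aligned reads with BWA to one representative TAIR10 model per gene and tested each comparison with edgeR; CASAVA 1.8.2 is also named in the submitters' processing notes. The 5 deposited tables hold only genes with an adjusted p below 0.05. From them came the log2 fold changes and mean log2 CPM computed by the authors, and the adjusted p-values that the authors deposited. A signed fold score deposited by the authors disagreed in sign with the log2 column for 779 genes of the triple mutant table and was used only as an alternative. No per-library values were used; 0 other sample columns were present.

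All values of fold change and adjusted p in the text are those deposited results. Members were matched by gene identifier and called at an adjusted p below 0.05 and at least 1.5-fold. The number of genes tested was worked out from the Benjamini-Hochberg relation of p to adjusted p, and genotype levels from mean log2 CPM and log2 fold change; both steps were tested on simulated data. Upstream sequence, transcript length and coding identity came from RefSeq TAIR10.1, whose gene models may differ from those the authors counted. Named genes were the role lists, the most changed members of each comparison, members listed in all WT comparisons or with opposite signs, and neighbours. Sequences, and some members outside this rule, were chosen after values were seen. Members and lists were chosen with earlier results of these data known. Alternatives changed the fold and adjusted p limits, the class of members, the fold column and the level filter. Python 3.11.15, pandas 2.3.3 and Biopython 1.88 were used.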

Additional observations from a re-analysis of the deposited data

How the results depend on the processing

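Without a fold limit, the members higher in the triple mutant numbered 22 in place of 13 and those lower 8 in place of 4. Those lower numbered 13 in place of 8 in *hy5* and in the quadruple mutant, and 21 in place of 13 in the quadruple mutant against the triple mutant. Against *hy5*, 3 were higher in place of 1 and 4 were lower in place of 0. With a limit of 2-fold, 6 were higher and 1 lower in the triple mutant, 5 and 4 in *hy5*, 5 and 3 in the quadruple mutant, and 3 and 4 in the quadruple mutant against the triple mutant, and against *hy5* 0 were higher. An adjusted p below 0.01, descriptions without ascorbate peroxidase or thioredoxin (which keep *DOX1* and *OCP3*), the signed fold column and a mean log2 CPM of at least 3 moved no count by more than 1.5 times. The sum of the steps through a parental line differed from the direct log2 fold change by at most 0.03 for every gene listed in the 3 tables. No paired analysis was possible because the tables hold no values of single libraries, and for the same reason no library could be left out. Counts over a whole family cannot show genes that the tables leave out.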
